A study of Mus musculus with 15 samples.

Results

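The retinoid carriers, enzymes and receptors described here are 9 genes: the carriers Rbp4, Crabp1 and Crabp2, the enzymes Aldh1a3, Rdh10 and Dhrs3, and the nuclear receptors Rara, Rarb and Rxra. They were found by symbol among the 23699 entries that each expression table lists, and all 9 were present. Their levels were read in 15 libraries of sorted pancreatic islet cells from mice of a mixed 129JC57BL/6 background. A Cre-activated red fluorescent protein (RFP) marked cells of β-cell origin, and RFP+ cells were split with Aldefluor, a fluorescent substrate that aldehyde dehydrogenase (ALDH) traps in the cell, into ALDH- and ALDH+ fractions. The groups were 3 control ALDH- libraries, 2 control ALDH+ libraries, 5 Foxo knockout ALDH- libraries and 5 Foxo knockout ALDH+ libraries. By the labels the knockouts lack Foxo1, Foxo3 and Foxo4 and the controls are heterozygous for all of these. The study's methods instead describe Rip-cre controls with wild-type Foxo alleles, so whether the knockout minus control values are set against a reduced or a full Foxo dose is not settled here. Both genotypes carried a Cre driver and RFP. Of these libraries 9 came from mice with Rip-cre as the Cre driver and 6 from mice with Pdx-cre. Rip-cre uses the rat insulin promoter and acts in differentiated β cells, whereas Pdx-cre acts in pancreatic precursors, so that RFP in those mice can also mark islet cells other than β cells, acinar cells and duct cells. The Rip-cre mice were 6 months old, the age of the Pdx-cre mice is not given in the sources used here, and nothing in the labels says which libraries came from the same animals. The p-values below therefore measure the spread between these libraries.

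Retinol travels in blood bound to RBP4, is oxidised in the cell to retinaldehyde by RDH10 and is oxidised further to retinoic acid by retinaldehyde dehydrogenases, of which ALDH1A3 is one. DHRS3 runs the first step backwards and returns retinaldehyde to retinol. Retinoic acid is carried inside the cell by CRABP1 and CRABP2 and acts through retinoic acid receptors (RARs) paired with retinoid X receptors (RXRs), which bind DNA at response elements near target genes such as Rarb and Cyp26a1. In the pancreas this pathway is best known for its role in the formation of the organ and of its endocrine cells.

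The libraries held between 7490987 and 10057002 fragments over all entries with a usable estimate, repeated symbols included (median 9280829). Levels are given as FPKM, mapped fragments scaled to transcript length and to library size, which corrects for transcript length and allows genes to be compared. Foxo1 lay between 12.0 and 20.1 FPKM in the 5 control libraries and between 0.0925 and 4.24 FPKM in the 10 knockout libraries, whereas Foxo3 overlapped between genotypes (12.7 to 23.0 against 9.78 to 30.6 FPKM). Foxo4 was low, at 0 to 1.34 FPKM in controls and 0 to 0.0669 FPKM in knockouts. The β-cell hormone Iapp was at 33196 FPKM or more in every library, but the other 5 β-cell markers used were all lower in Pdx-cre libraries, with values given beside Rbp4. The acinar marker Ctrb1, a digestive protease precursor, set 3 Pdx-cre libraries apart. It was at 1223, 331 and 601 FPKM in control ALDH+ replicate 2, Foxo knockout ALDH- replicate 5 and Foxo knockout ALDH+ replicate 5, against at most 8.14 FPKM elsewhere. These 3 are the libraries said below to hold acinar transcripts. Cela1, another acinar marker, was at 14.3 to 15.6 FPKM in all 3 Pdx-cre ALDH- libraries, against at most 5.14 FPKM with Rip-cre. Leaving the 3 libraries out therefore does not leave a set free of acinar transcripts. The main values for Rbp4, Aldh1a3, Dhrs3 and Rdh10 are also given without these 3 libraries.

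The 9 genes covered a wide range of levels. By the median over the 15 libraries Rbp4 was highest at 29.7 FPKM, followed by Rxra at 7.92, Rdh10 at 4.70, Aldh1a3 at 4.09, Dhrs3 at 3.78 and Rara at 3.31 FPKM. Rbp4 exceeded Rxra in all 15 libraries, and Rxra exceeded Rdh10 in 12 of 15. The next genes were not separated by their levels, since Rdh10 exceeded Aldh1a3 in 7 of 15 libraries, Aldh1a3 exceeded Dhrs3 in 9 and Dhrs3 exceeded Rara in 8. Crabp1, Crabp2 and Rarb had a median of 0. These 3 fell below the minimum mean of 1 FPKM set for the test across all genes, which left 6 of the 9 genes in that test.

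**Figure D1:**
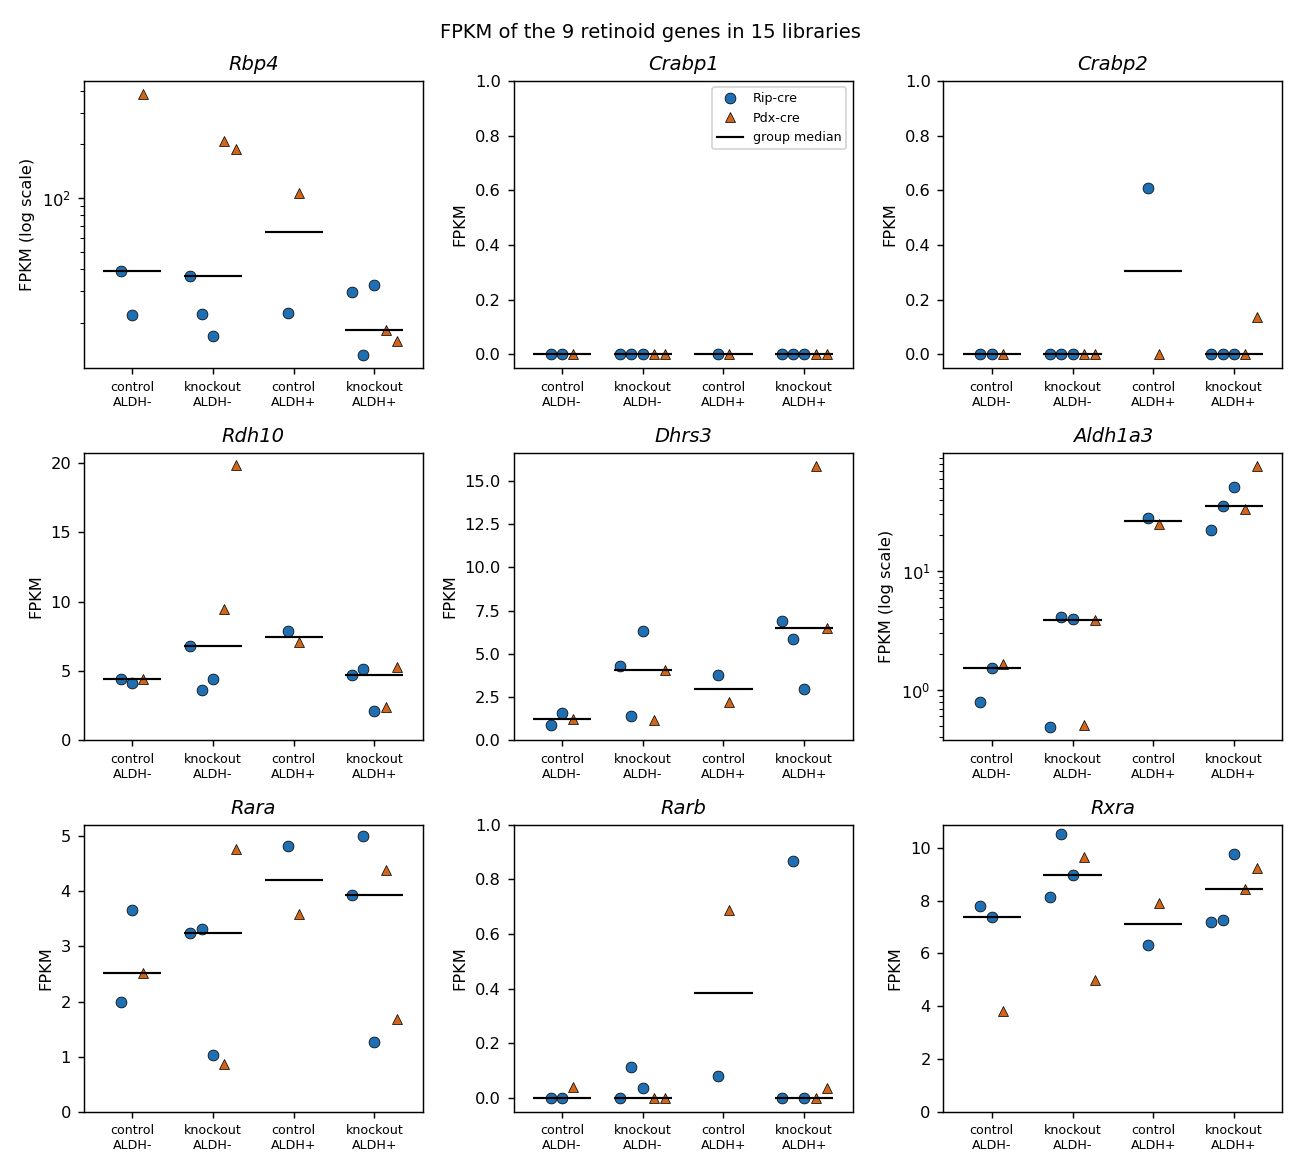
FPKM (vertical axes, logarithmic for Rbp4 and Aldh1a3) of the 9 genes in each of the 15 libraries, in 4 groups by genotype and ALDH fraction. Circles are Rip-cre libraries, triangles Pdx-cre libraries and lines group medians. Aldh1a3 separates the 7 ALDH+ from the 8 ALDH- libraries, Rbp4 is highest in 4 Pdx-cre libraries, and Crabp1, Crabp2 and Rarb stay under 1 FPKM.

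Aldh1a3 (chr7:73535779-73572363, mm9) encodes the dehydrogenase that Aldefluor activity was taken to report, so its difference between fractions is a check of the sort and not an independent result. Its FPKM was 0.791, 1.54 and 1.66 in the control ALDH- libraries and 0.490, 4.09, 3.95, 0.506 and 3.87 in the Foxo knockout ALDH- libraries. In the ALDH+ fraction it was 28.2 and 24.9 in controls and 22.1, 35.2, 50.7, 33.4 and 76.9 in knockouts. Every ALDH+ library was above every ALDH- library. Of the 6 tested genes Aldh1a3 alone separated the fractions in this way, which 0.364% of the 11253 genes tested did upwards and 0.311% downwards. The log2 difference, averaged over genotypes, was 3.63 ± 0.36 (SE, limma, adjusted p = 0.000284), and Aldh1a3 was first of all genes by p. Without the 3 libraries that held acinar transcripts it was 3.61 ± 0.42 (adjusted p = 0.00235).

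Among the 6 tested genes 1 passed an adjusted p of 0.05 for ALDH+ against ALDH- averaged over genotypes, and it was Aldh1a3, where 5.99% of all tested genes passed. Within controls the Aldh1a3 difference was 3.53 ± 0.59 (limma, adjusted p = 0.0298) and it was again the only member called, where 1.22% of all genes were. Within knockouts it was 3.74 ± 0.41 (adjusted p = 0.00108) and 0.0178% of all genes were called. The control call was lost when control ALDH- replicate 1, 2 or 3 or control ALDH+ replicate 1 was left out, where the adjusted p was between 0.066 and 0.624 while the log2 difference stayed between 3.35 and 3.65. An exact two-sided permutation test of the ALDH labels within genotype and Cre driver gave p = 0.00139, the smallest value the 720 arrangements allow.

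Within the fractions the level of Aldh1a3 also varied. In knockout ALDH- cells 3 libraries were near 4 FPKM and 2 near 0.5 FPKM, and both Rip-cre and Pdx-cre libraries were in each set. Of the retinaldehyde dehydrogenase genes Aldh1a3 had the highest level in every library. Aldh1a2 was listed at 0 in all 15 libraries, and Aldh1a1 did not exceed 0.353 FPKM. Aldh8a1 was listed at 0 in the 8 ALDH- libraries and in 4 of the 7 ALDH+ libraries, and the other 3 had 0.259, 0.613 and 0.279 FPKM on 5, 12 and 6 fragments. Aldh1a3 made up at least 99.6% of the summed FPKM of Aldh1a1, Aldh1a2 and Aldh1a3 in every ALDH+ library, and at least 70.8% in every ALDH- library. When the genes tested were ranked by their correlation with Aldh1a3 inside each fraction (mean of Pearson's r over 8 ALDH- and 7 ALDH+ libraries), the 5 most alike were Rab7 (0.92), Fmnl2 (0.88), Nab1 (0.85), Nars (0.85) and Eif5a (0.85). Among the members the fractions often differed in sign. The r in ALDH- and in ALDH+ libraries was -0.06 and 0.73 for Rxra, 0.41 and 0.09 for Dhrs3, 0.08 and -0.33 for Rdh10, 0.32 and -0.77 for Rara, and -0.14 and -0.42 for Rbp4. These values are descriptions over few libraries that share genotypes and drivers.

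Rdh10 (chr1:16095963-16122631, mm9), the enzyme that makes retinaldehyde, had 4.40, 4.12 and 4.40 FPKM in the control ALDH- libraries, against 7.87 and 7.07 FPKM in the control ALDH+ libraries. The knockout ALDH- libraries had 6.80, 3.62, 4.38, 9.47 and 19.9 FPKM, and the knockout ALDH+ libraries 4.70, 5.15, 2.10, 2.36 and 5.26 FPKM. Both control ALDH+ libraries were thus above all control ALDH- libraries, while the knockout fractions overlapped and the 3 highest knockout libraries were ALDH-. The log2 difference between fractions was 0.57 ± 0.49 in controls (limma, adjusted p = 0.667) and -0.83 ± 0.34 in knockouts (adjusted p = 0.304). The test of the difference between these, the interaction of genotype and ALDH, gave -1.40 ± 0.60 with an unadjusted p of 0.0316 and an adjusted p of 0.998. No gene passed that interaction (0%; 476 of 11253 had an unadjusted p under 0.05). The averaged difference of -0.13 ± 0.30 (adjusted p = 0.851) was not larger than the spread between libraries, and it turned to 0.05 without Foxo knockout ALDH- replicate 5, the library with 19.9 FPKM that also held acinar transcripts, and to 0.078 ± 0.31 without all 3 libraries that held them.

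Dhrs3 (chr4:144482730-144517548, mm9), the reductase that opposes RDH10, had 0.844, 1.55 and 1.24 FPKM in the control ALDH- libraries, against 3.78 and 2.18 FPKM in the control ALDH+ libraries. The knockout ALDH- libraries had 4.26, 1.36, 6.33, 1.16 and 4.08 FPKM, and the knockout ALDH+ libraries 6.88, 5.84, 2.97, 15.9 and 6.47 FPKM. The ALDH+ libraries were above the ALDH- libraries in controls, and in knockouts 3 of the 5 ALDH+ libraries were above every ALDH- library. The log2 difference averaged over genotypes was 0.87 ± 0.35 (limma, unadjusted p = 0.0239), which did not pass adjustment over all genes (adjusted p = 0.161). Taken alone, Dhrs3 gave p = 0.0222 in the exact two-sided permutation test over all 15 libraries, 1 of 8 genes tested so. That p rose to 0.0583 without Foxo knockout ALDH- replicate 4, to 0.0611 without Foxo knockout ALDH+ replicate 4 and to 0.075 without control ALDH+ replicate 1. The difference was 0.79 ± 0.58 in controls and 0.96 ± 0.40 in knockouts, and the control value was 0.38 without control ALDH+ replicate 1. Without the 3 libraries that held acinar transcripts the averaged difference was 1.11 ± 0.46 (adjusted p = 0.209).

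Since DHRS3 and RDH10 catalyse opposite directions of 1 step, their levels were also set side by side in each library. The Dhrs3 to Rdh10 ratio of FPKM was 0.192, 0.376 and 0.282 in control ALDH- cells and 0.480 and 0.308 in control ALDH+ cells. It was 0.626, 0.377, 1.44, 0.122 and 0.205 in knockout ALDH- cells and 1.46, 1.13, 1.41, 6.75 and 1.23 in knockout ALDH+ cells. All 5 knockout ALDH+ libraries had more Dhrs3 than Rdh10, which was so in 1 of the other 10 libraries. This ratio was chosen after its values were seen and was given no test.

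**Figure D2:**
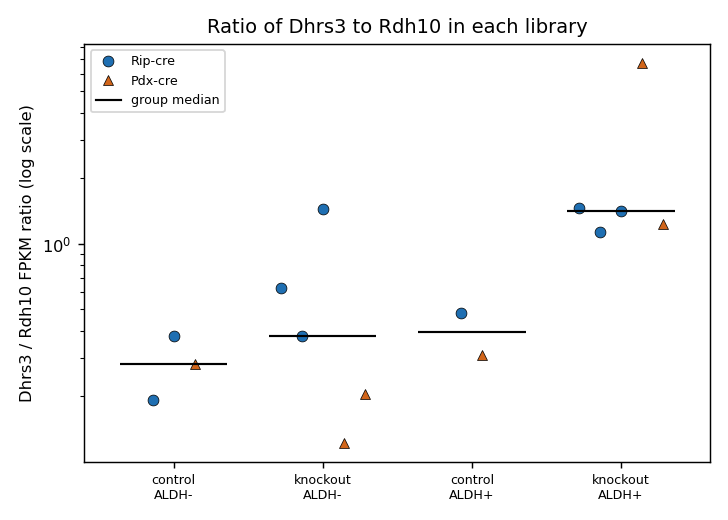
Ratio of Dhrs3 to Rdh10 FPKM (vertical axis, logarithmic) in each library by genotype and ALDH fraction. Circles are Rip-cre libraries, triangles Pdx-cre libraries and lines group medians. The knockout ALDH+ libraries sit between 1.13 and 6.75, and the only other library above 1 is a knockout ALDH- library at 1.44.

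Rbp4 (chr19:38191110-38199811, mm9), the plasma carrier of retinol, was the member that differed between Cre drivers. In ALDH- cells it was at 39.3 and 22.1 FPKM in the Rip-cre controls and at 383 FPKM in the Pdx-cre control. The knockout ALDH- libraries had 36.4, 22.3 and 17.0 FPKM with Rip-cre and 209 and 188 FPKM with Pdx-cre. In ALDH+ cells the values were 22.7 FPKM in the Rip-cre control, 107 FPKM in the Pdx-cre control, 29.7, 13.2 and 32.5 FPKM in the Rip-cre knockouts and 18.3 and 15.7 FPKM in the Pdx-cre knockouts. The 3 Pdx-cre ALDH- libraries were therefore above all Rip-cre libraries, while 2 of the 3 Pdx-cre ALDH+ libraries lay within the Rip-cre range.

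Rbp4 was the only 1 of the 6 genes called for Pdx-cre against Rip-cre, with a log2 difference of 1.90 ± 0.48 (limma, adjusted p = 0.0202), where 9.73% of all tested genes were called. The call was lost when control ALDH- replicate 3 (adjusted p = 0.0837), Foxo knockout ALDH- replicate 5 (0.0608), control ALDH+ replicate 1 (0.0543) or control ALDH+ replicate 2 (0.0531) was left out. It was also lost when genes of low level were kept in the test (adjusted p = 0.0651). Without the 3 libraries that held acinar transcripts the difference was 2.10 ± 0.59 (adjusted p = 0.112). Among ALDH- libraries alone it was 3.30 ± 0.28 (adjusted p = 0.000475), and among ALDH+ libraries alone 0.35 ± 0.51 (adjusted p = 0.782). The interaction of Cre driver and ALDH for Rbp4 was -2.95 ± 0.63 with an unadjusted p of 0.000285, rank 7 of 11253 genes by p, but it did not pass adjustment (adjusted p = 0.458), and no gene did (0%; 511 of 11253 had an unadjusted p under 0.05). It passed without control ALDH+ replicate 1 (-3.74, adjusted p = 0.0272) and without control ALDH+ replicate 2 (-3.74, adjusted p = 0.0244). Over all alternatives it ran from -3.74 to -2.61, with adjusted p from 0.0244 to 0.864, and without the 3 libraries that held acinar transcripts it was -3.73 ± 0.67 (adjusted p = 0.224).

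Between fractions, averaged over genotypes and with all libraries, the log2 difference of Rbp4 was -1.11 ± 0.50 (limma, adjusted p = 0.217), and the exact two-sided permutation test gave p = 0.0625. In the Rip-cre libraries alone it was -0.19, and in the Pdx-cre libraries alone, 6 libraries in 4 groups, -2.70. Both fits had 1 control ALDH+ library, and the Pdx-cre fit had 2 residual degrees of freedom, so no p is given for them. The difference over all libraries was -0.68 without control ALDH- replicate 3, the library with the most Rbp4, and -0.89 ± 0.59 (adjusted p = 0.452) without the 3 libraries that held acinar transcripts. Leaving those out of the Pdx-cre set leaves 3 libraries in 3 groups, with 383 and 209 FPKM in ALDH- and 18.3 FPKM in ALDH+ cells, and no test.

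Rbp4 was highest in the same 4 libraries as the hormones of other islet cells, although the labels give every library as sorted β cells. Somatostatin (Sst, the δ-cell hormone) was at 13631, 9792, 8245 and 2981 FPKM in the 4 libraries with the most Rbp4, in the same order as Rbp4 itself, and at 412 to 1297 FPKM in the other 11. Glucagon (Gcg, the α-cell hormone) was at 35838, 17334, 9533 and 5822 FPKM in those 4 libraries and at most 1016 FPKM in the others. Pancreatic polypeptide (Ppy) was at 8978, 3608, 1098 and 2132 FPKM, and at most 777 FPKM elsewhere. Rbp4 was between 1.36% and 5.37% of Sst FPKM in all 15 libraries, while its own level ran from 13.2 to 383 FPKM. Among the other 11 libraries the orders of Rbp4 and Sst were not the same. Foxo knockout ALDH+ replicate 5 had rank 14 for Rbp4 and 6 for Sst, whereas replicate 4 of that group had rank 12 for both. Sst differed between drivers by 2.35 ± 0.50 (limma, adjusted p = 0.00769), Gcg by 3.13 ± 0.62 (adjusted p = 0.00549) and Ppy by 2.31 ± 0.43 (adjusted p = 0.00349). Without the 3 libraries that held acinar transcripts these were 2.62, 3.17 and 2.40 (adjusted p = 0.0815, 0.0963 and 0.0511). The Cre driver by ALDH interaction for Sst was -3.28 ± 0.58 (adjusted p = 0.145).

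The whole marker lists ran alike. The summed FPKM of 3 δ-cell markers was 8256 to 13649 in Pdx-cre ALDH- libraries, 752 to 2991 in Pdx-cre ALDH+ libraries, 414 to 1038 in Rip-cre ALDH- libraries and 507 to 1298 in Rip-cre ALDH+ libraries. The sum of 4 α-cell markers was 9554 to 35849 FPKM in Pdx-cre ALDH- libraries and at most 5829 FPKM in any other library. The sum of 2 PP-cell markers was 2988 to 18184 FPKM in Pdx-cre ALDH- libraries and at most 4433 FPKM in any other, and no marker of these 3 lists was at 0 throughout any of these sets of libraries. Single markers of further cell types also differed between drivers. Cd68, a macrophage marker, was at 34.4 to 148 FPKM in Pdx-cre and 19.0 to 37.7 FPKM in Rip-cre libraries (log2 difference 1.46 ± 0.24, limma, adjusted p = 0.00146), although Emr1, another macrophage marker, was at 0 in every library. Of the other leukocyte markers, Csf1r went the other way, with a mean of 0.165 FPKM with Pdx-cre and 0.312 FPKM with Rip-cre. Ptprc did not exceed 0.0214 FPKM under either driver. The duct marker Krt19 was at 2.97 to 18.8 against 0 to 12.0 FPKM (1.90 ± 0.48, adjusted p = 0.0204). Of the other duct markers, Spp1 was not called (0.46 ± 0.36, limma, adjusted p = 0.471). Sox9 did not exceed 0.494 FPKM with Pdx-cre or 0.0451 FPKM with Rip-cre. Ctrb1 differed by 4.83 ± 1.29 (adjusted p = 0.0269). Without the 3 libraries that held acinar transcripts Cd68 differed by 1.17 (adjusted p = 0.0352) and Krt19 by 1.48 (adjusted p = 0.313).

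In the other direction, 5 of the 6 β-cell markers that could be used fell in Pdx-cre libraries. The insulin genes Ins1 and Ins2 were on the marker list too but were left out for failed or too-deep estimates. Slc2a2, the glucose transporter GLUT2, was at 17.3 ± 6.82 FPKM (SD, n = 6) with Pdx-cre and 132 ± 38.2 FPKM (n = 9) with Rip-cre (-2.87 ± 0.24, limma, adjusted p = 3.39e-06). Ucn3, a marker of mature β cells, was at 202 ± 86.8 against 623 ± 123 FPKM (-1.69 ± 0.25, adjusted p = 0.000817). The β-cell transcription factor genes Nkx6-1, Pdx1 and Mafa fell by 1.02, 0.98 and 1.24 on the log2 scale (adjusted p = 0.000102, 0.00464 and 0.0227). Iapp differed by 0.21 ± 0.38 (adjusted p = 0.787). Without the 3 libraries that held acinar transcripts the calls held for Slc2a2 (-2.46, adjusted p = 0.000115), Ucn3 (-1.14, 0.00891) and Nkx6-1 (-0.96, 0.00931) and were lost for Pdx1 (-0.64, 0.183) and Mafa (-1.03, 0.256). For Slc2a2 the Pdx-cre libraries were low in both fractions, at 9.21 to 22.5 FPKM in ALDH- and 8.61 to 24.6 FPKM in ALDH+ cells, whereas Rbp4 was high mainly in the ALDH- fraction. The part of these cell types in the Rbp4 difference was not tested, and in sorted bulk RNA fewer cells of a type and less RNA per cell cannot be told apart. Driver, age and time of preparation cannot be told apart either.

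**Figure D3:**
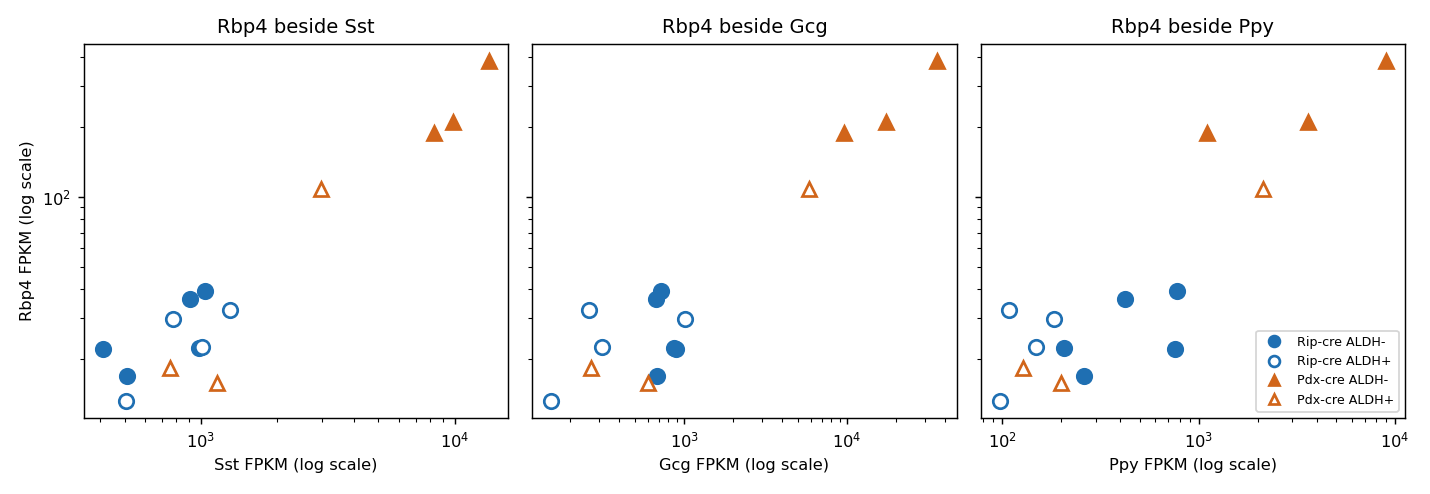
Rbp4 FPKM (vertical axis, logarithmic) against Sst, Gcg and Ppy FPKM (horizontal axes, logarithmic) in the 15 libraries. Circles are Rip-cre and triangles Pdx-cre libraries, filled for ALDH- and open for ALDH+. The 3 Pdx-cre ALDH- libraries and 1 Pdx-cre ALDH+ library are highest for Rbp4 and for Sst, Gcg and Ppy, and the other 11 libraries lie together.

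The intracellular carriers were at or near 0. Crabp1 (chr9:54612615-54620916, mm9) was listed at 0 in all 15 libraries. Crabp2 (chr3:87752615-87757294, mm9) was listed at 0 in 13 libraries, at 0.610 FPKM on 4 fragments in control ALDH+ replicate 1 and at 0.137 FPKM on 1 fragment in Foxo knockout ALDH+ replicate 5. Both libraries with a Crabp2 fragment were ALDH+, and the exact two-sided permutation test gave p = 0.167. At this depth a difference in either gene was not detectable.

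Rxra (chr2:27532721-27618839, mm9), the common partner of RARs, stayed between 3.82 and 10.5 FPKM throughout. The control libraries had 7.80, 7.37 and 3.82 FPKM in the ALDH- fraction and 6.30 and 7.92 FPKM in the ALDH+ fraction. The knockout libraries had 8.15, 10.5, 8.97, 9.66 and 4.98 FPKM in the ALDH- fraction and 7.18, 7.27, 9.77, 8.43 and 9.23 FPKM in the ALDH+ fraction. The 4 groups overlapped, and the lowest values were those of 2 Pdx-cre ALDH- libraries. The averaged difference between fractions was 0.11 ± 0.19 (limma, adjusted p = 0.798). Rxra made up between 51.2% and 90.7% of the summed FPKM of Rxra, Rxrb and Rxrg, and Rxrg was listed at 0 in every library.

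Rara (chr11:98799010-98836256, mm9) binds retinoic acid directly. Its FPKM in controls was 1.99, 3.66 and 2.52 in the ALDH- libraries and 4.83 and 3.59 in the ALDH+ libraries. In knockouts it was 3.25, 3.31, 1.02, 0.868 and 4.77 in the ALDH- libraries and 3.93, 5.0, 1.27, 4.39 and 1.68 in the ALDH+ libraries. The fractions overlapped in both genotypes, and the averaged difference was 0.37 ± 0.33 (limma, adjusted p = 0.584). Rara made up a median of 64.0% of the summed FPKM of Rara, Rarb and Rarg (range 41.5% to 79.8%), and Rarg a median of 34.6%.

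Rarb (chr14:17263354-17407724, mm9), both a receptor and a retinoic acid target, was close to 0. It was listed at 0 in 8 libraries, at 0.0368 to 0.113 FPKM on 1 to 3 fragments in 5, at 0.688 FPKM on 17 fragments in control ALDH+ replicate 2 and at 0.866 FPKM on 25 fragments in Foxo knockout ALDH+ replicate 2. The highest values were thus both in ALDH+ libraries, 1 of each genotype, but 3 of the 7 ALDH+ libraries were at 0 and the exact two-sided permutation test gave p = 0.212. Cyp26a1, which encodes a retinoic acid hydroxylase and is a second well-known target, was highest in the 3 libraries with acinar transcripts. It was at 1.26 FPKM in the ALDH- library among them and at 0.661 and 0.541 FPKM in the ALDH+ libraries among them. The other libraries had 0.0688 FPKM at most.

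**Figure D4:**
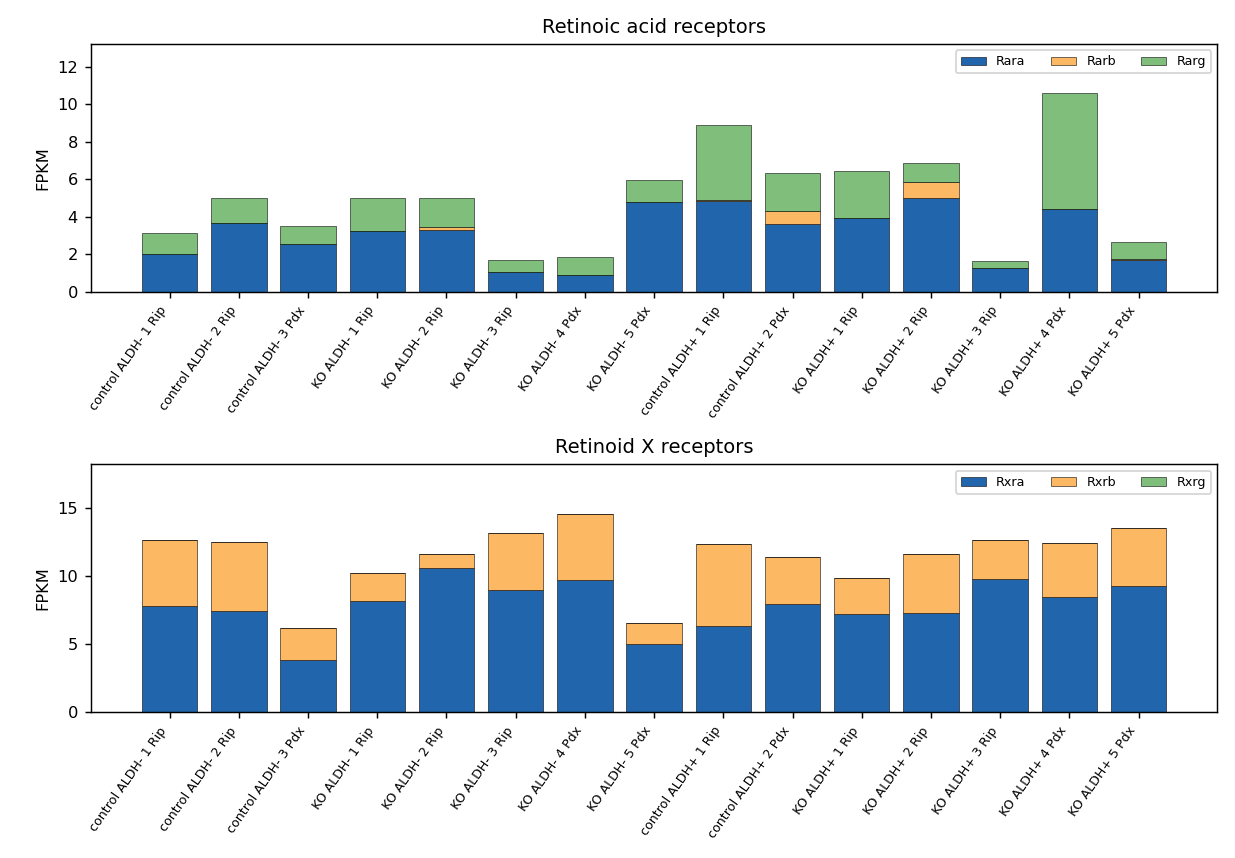
Stacked FPKM (vertical axes, from 0) of the retinoic acid receptor genes Rara, Rarb and Rarg (top) and the retinoid X receptor genes Rxra, Rxrb and Rxrg (bottom) in each library. Names give genotype (KO, Foxo knockout), fraction, replicate and Cre driver. Rara and Rarg make up most of each RAR bar, Rarb is visible in 3 libraries, and Rxra is the larger part of each RXR bar.

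The promoters of Rarb and Cyp26a1 are printed here because their levels serve as readouts of the pathway, and both hold the letters of a retinoic acid response element. RefSeq promoter sequences (GRCm38.p6, 250 bases before to 50 after the start, 32851 promoters) were searched on both strands for 2 units in tandem, each of them AGGTCA or GGGTCA, or else AGTTCA or GGTTCA, with 1, 2 or 5 bases between them. Of all promoters, 0.0974% held such a pair at a spacing of 5, 0.268% at 2 and 0.222% at 1. Of the 9 genes 6 were matched to at least 1 promoter, 13 promoters in all, and Rarb was the only 1 of them with a match. The hydroxylase genes Cyp26a1 and Cyp26b1 were searched too, with 1 promoter each, and only Cyp26a1 had a match. The capitals mark the tandem copies and each line reads 5′ to 3′ along the gene's strand.
Rarb (chr14:16575491-16575551, minus strand, GRCm38.p6): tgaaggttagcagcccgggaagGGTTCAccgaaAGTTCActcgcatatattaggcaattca
Cyp26a1 (chr19:37697754-37697807, plus strand, GRCm38.p6): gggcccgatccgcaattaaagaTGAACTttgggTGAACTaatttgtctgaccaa
The pair in Rarb lies 53 to 37 bases before the start on the gene's own strand, and that in Cyp26a1 lies 32 to 16 bases before the start on the opposite strand, each with 5 bases between the copies. A match of letters is a description and says nothing about binding in these cells.

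Foxo genotype was not accompanied by a called difference in any of the 6 tested genes. In ALDH- cells the knockout minus control log2 difference was 0.85 ± 0.46 for Dhrs3, 0.63 ± 0.39 for Rdh10, 0.41 ± 0.47 for Aldh1a3, 0.39 ± 0.25 for Rxra, -0.14 ± 0.44 for Rara and -0.44 ± 0.66 for Rbp4 (limma, adjusted p from 0.89 to 0.992), where 0.0178% of all genes were called. In ALDH+ cells it was 1.02 ± 0.53 for Dhrs3, 0.63 ± 0.54 for Aldh1a3, 0.22 ± 0.29 for Rxra, -0.37 ± 0.50 for Rara, -0.77 ± 0.45 for Rdh10 and -1.0 ± 0.76 for Rbp4 (adjusted p from 0.808 to 0.953), and 0% of all genes were called, with 743 of 11253 at an unadjusted p under 0.05. The knockout ALDH+ values of Aldh1a3 ran from 22.1 to 76.9 FPKM and enclosed both control values. With 2 control ALDH+ libraries the errors are wide, and these values do not show that the genotypes were alike.

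**Figure D5:**
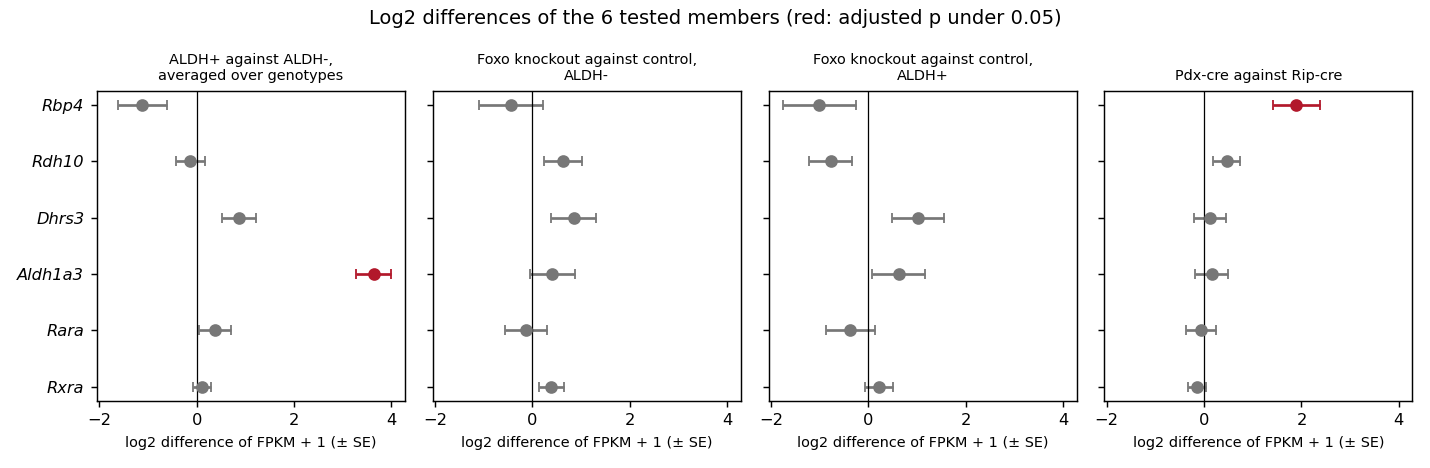
Log2 differences of rescaled FPKM + 1 (horizontal axes, points with SE from limma) of the 6 tested genes in 4 comparisons. Red marks an adjusted p under 0.05. Aldh1a3 is red for ALDH+ against ALDH- at 3.63, Rbp4 is red for Pdx-cre against Rip-cre at 1.90, and no gene is red for Foxo knockout against control.

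No member other than Rbp4 was called for the driver. The Pdx-cre minus Rip-cre log2 difference was 0.47 ± 0.28 for Rdh10, 0.16 ± 0.34 for Aldh1a3, 0.12 ± 0.33 for Dhrs3, -0.06 ± 0.32 for Rara and -0.15 ± 0.18 for Rxra (limma, adjusted p from 0.325 to 0.926).

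Of 56 other genes of retinoid transport, metabolism and signalling, 26 were tested. None passed for ALDH+ against ALDH- averaged over genotypes, where 19 had a positive and 7 a negative log2 difference, with a median of 0.18 against -0.02 over all genes tested. An unadjusted p under 0.05 was reached by 2 of the 26, against 2339 of the 11253 genes tested. Ncor1, a corepressor that unliganded receptors recruit, differed by 0.47 ± 0.14 (limma, adjusted p = 0.0613) and passed without Foxo knockout ALDH- replicate 2 (adjusted p = 0.0426) or replicate 4 (adjusted p = 0.044). Over all alternatives the Ncor1 difference ran from 0.33 to 0.55, and in some of them the adjusted p was higher than with all libraries. Ttr, which encodes the plasma partner of RBP4, was at 160 to 711 FPKM in ALDH- and 79.2 to 520 FPKM in ALDH+ cells and differed by -0.71 ± 0.31 (adjusted p = 0.209). None of the 26 passed for genotype in either fraction.

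For Pdx-cre against Rip-cre 3 of the 26 were higher and 3 lower, where 9.73% of all genes tested were called, 639 higher and 456 lower. They are named after their values were seen. The higher genes were Fabp5, a fatty acid binding protein that can also carry retinoic acid (2.59 ± 0.38, limma, adjusted p = 0.000736), Rdh9, a retinol dehydrogenase family gene (1.59 ± 0.41, adjusted p = 0.0219), and Bhlhe40, a transcriptional repressor (1.19 ± 0.22, adjusted p = 0.00385). The lower genes were Adh1, an alcohol dehydrogenase that can oxidise retinol (-1.90 ± 0.43, adjusted p = 0.0109), Ncor1 (-0.67 ± 0.13, adjusted p = 0.00547) and Ncoa1, a receptor coactivator (-0.53 ± 0.13, adjusted p = 0.0207). Fabp5, Rdh9, Bhlhe40, Ncor1 and Ncoa1 lost the call without the 3 libraries that held acinar transcripts (adjusted p from 0.0603 to 0.196), where their log2 differences were 1.8, 1.78, 0.80, -0.44 and -0.47. In that setting 7 residual degrees of freedom were left in place of 10, and calls over all genes fell from 1095 to 132. The Rdh9 call was also lost without control ALDH- replicate 3, control ALDH+ replicate 1 or control ALDH+ replicate 2 (adjusted p from 0.0657 to 0.0727), and the Ncoa1 call without control ALDH- replicate 3 (0.0549) or Foxo knockout ALDH+ replicate 5 (0.0615). Keeping genes of low level in the test ended the Rdh9 call (adjusted p = 0.0591), and removing a trend with transcript length ended the Ncoa1 call (-0.36, adjusted p = 0.121).

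Of 13 genes of retinoid transport and storage, 3 were at 1 FPKM or more in every library. They were Ttr (median 378 FPKM), Dgat1, an acyltransferase that can esterify retinol (7.01), and Bcmo1, which cleaves β-carotene to retinaldehyde (4.46). Other genes of uptake, storage and breakdown were low. Stra6, the cell-surface receptor for RBP4, did not exceed 0.167 FPKM, and Lrat, the enzyme that stores retinol as esters, was listed at 0 in 14 libraries and at 0.441 FPKM in the other. Cyp26b1, a retinoic acid hydroxylase, stayed at or under 1.53 FPKM. Of the detected receptors outside the 9 genes, Rarg was at 0.606 to 1.73 FPKM in ALDH- and 0.334 to 6.20 FPKM in ALDH+ cells (0.56 ± 0.35, limma, adjusted p = 0.387), and Rxrb at 1.08 to 5.11 and 2.69 to 6.00 FPKM. Rdh11, a retinaldehyde reductase, was at 2.77 to 7.02 FPKM in ALDH- and 1.27 to 5.63 FPKM in ALDH+ cells (-0.52 ± 0.26, adjusted p = 0.262). In all, 7 of the 56 genes were listed at 0 in every library.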

How the data were processed

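Poly-A RNA of 15 sorted islet-cell libraries was sequenced after TruSeq preparation. Submitters' processing notes name bcl2fastq 1.8.4, TopHat2 2.0.4 and build mm9. The quantifier's version and the annotation are not given in the sources used here. The authors deposited 1 table per library with FPKM values and confidence bounds, and positions are given as in these tables. Symbols listed more than once (248 on 712 lines) were left out. So were lines with a failed or too-deep estimate (63, Ins1 and Ins2 among them), which left 22924 genes. Fragment numbers were worked out from the width of the bounds, taken as Poisson, and cover counting error only. Only 66.5% of the values below 500 fragments came within 0.02 of a whole number, so no count test was run.

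FPKM were rescaled between libraries by trimmed means of M-values without weights (trimming 30% by M and 5% by A), and log2(FPKM + 1), with a pseudocount of 1, entered linear models in limma 3.58.1 under R 4.3.3 (group and Cre driver in the model, trended prior). Changes of low genes are understated on this scale. Genes with a mean of at least 1 FPKM (11253) were tested and p-values were adjusted over them by Benjamini-Hochberg. The interaction of driver and ALDH was fitted in a model with that term added. Single genes were tested by exact permutation of ALDH labels within genotype and driver. Scripts were tested on simulated data. The genes named are the 9 members, up to 12 genes of the pathway list and those of it that passed, Foxo genes as a check and cell type markers beside Rbp4, of which Cd68 and Krt19 were picked after their values were seen. The members and lists were chosen with earlier results of these data known. Alternatives covered the pseudocount, the filter, the scaling, transcript length, drivers, replicate blocks, the compared groups only and each library left out. Leaving out the libraries with acinar transcripts, and splitting the driver comparison by ALDH fraction, were added after seeing the data.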

Additional observations from a re-analysis of the deposited data

Results flagged for a closer look

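Within the groups of 5 libraries, 15 sets of values of the 9 genes were tested by Dixon's test for a library far from the rest of its group, and 2 were found. Chance gives about 1 in 20 for continuous values, but that rate does not hold for sets that are mostly at 0, as both of these were. Rarb in Foxo knockout ALDH+ replicate 2 was at 0.866 FPKM on 25 fragments, where the other libraries of that group were at 0 to 0.0368 FPKM. Crabp2 in Foxo knockout ALDH+ replicate 5 was at 0.137 FPKM on 1 fragment, where the other 4 were at 0, so that any fragment there would stand apart.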

How the results depend on the processing

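Counts of called members were 1 throughout for ALDH+ against ALDH- averaged over genotypes, but Aldh1a3 was not called with Pdx-cre libraries only. That fit held 6 libraries in 4 groups, with 1 library in each control group and 2 residual degrees of freedom. Only its log2 differences are therefore given, -2.70 for Rbp4 and 3.72 for Aldh1a3. For controls the count fell from 1 to 0 with no Cre driver in the model and with the length trend removed. In these settings 0 of 11253 and 0 of 11142 genes tested were called, so the fall was not particular to the members. The control count was 0 to 1 when 1 library was left out. The control call was also lost with Rip-cre and with Pdx-cre libraries only, fits with 5 and 2 residual degrees of freedom and 1 control ALDH+ library each. For knockouts the call was lost with Rip-cre libraries only, as it was for every gene. For Pdx-cre against Rip-cre the count fell to 0 with no filter, where 899 of 16928 genes were called. It was also 0 without the acinar-positive libraries and in ALDH+ libraries alone. It was 0 to 1 when 1 library was left out, as it was for the driver by ALDH interaction. The cause was not tested. The differences that changed direction were all short of the threshold. With Rip-cre libraries only Rdh10 and Rxra were at 0.24 and -0.20 between fractions, and Rbp4 at 0.11 for genotype in ALDH+ cells, against -1.0 with all libraries. With Pdx-cre libraries only Aldh1a3 was at -0.032 for genotype in ALDH- cells. Without the acinar-positive libraries Rdh10 and Rxra were at 0.078 and -0.10 between fractions and Aldh1a3 at -0.29 for driver. For driver in ALDH- libraries alone Rara, Dhrs3 and Aldh1a3 were at 0.013, -0.22 and -0.030, and in ALDH+ libraries alone Rdh10 and Rxra at -0.062 and 0.19.

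Leaving out 1 library at a time moved the fraction difference of Rdh10 between -0.30 and 0.051, of Rxra between -0.024 and 0.26 and of control Rbp4 between -1.35 and 0.037. Genotype differences ran from -0.38 to 0.085 for Rara and -0.98 to 0.38 for Rbp4 in ALDH- cells, and from -0.066 to 0.50 for Rxra in ALDH+ cells. Driver differences ran from -0.28 to 0.14 for Rara, -0.14 to 0.36 for Dhrs3 and -0.044 to 0.44 for Aldh1a3. The exact p ran from 0.0389 to 0.125 for Rbp4, 0.00833 to 0.075 for Dhrs3 and 0.433 to 0.981 for Rxra.

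Libraries of the 2 fractions share replicate numbers, but the residuals of same-numbered pairs correlated at -0.04 to 0.07, so the numbers were not taken to pair them. With the replicate number as a block (consensus correlation 0.041 or 0.059) the Aldh1a3 difference was 3.64 (adjusted p = 0.000189 or 0.000156), and no call of a member changed. The low fragment numbers of Crabp2 and Rarb limit what can be seen of them.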
